A study of Capra hircus with 12 samples.

Results

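Prostaglandin E2 (PGE2) is made, exported, sensed and degraded by a small set of gene products, and 10 of the 28910 rows in the deposited count tables were chosen because their gene name is one of PLA2G4A, PTGS1, PTGS2, PTGES, PTGES2, PTGES3, ABCC4, PTGER2, PTGER4 and HPGD. The name COX2 in the same tables belongs to the mitochondrial cytochrome oxidase subunit and was not included. RNA-seq had been performed on goat cells of the temporomandibular joint (TMJ) condyle, from the superficial layer (SLC) and from the middle cartilage layer (MLC). For each layer there were 3 replicates of the label IL-1β and 3 of the label IL-1β+LOXL2, which makes 12 libraries. The comparison within a layer addresses what lysyl oxidase-like 2 (LOXL2) does to cells exposed to the cytokine IL-1β, and the comparison between layers addresses whether the cells differ in the pathway under the same treatment.

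All groups had received IL-1β, and vehicle-treated cells were not analysed here, so induction by IL-1β was not measured. The joints came from young female goats of local abattoirs. The condylar fibrocartilage was digested with collagenase and the cells were grown in serum-containing medium. LOXL2 was introduced by an adenovirus overnight, before a short stimulation with IL-1β. Whether the cells labelled IL-1β had received an empty adenovirus is not stated for the sequenced libraries, so an effect of LOXL2 and one of the virus cannot be told apart. Nothing in the sources used here says whether replicates came from separate animals or cultures, and p-values then measure only the spread between these libraries.

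PGE2 synthesis starts when cytosolic phospholipase A2 (PLA2G4A) releases arachidonic acid from membranes. The cyclooxygenases PTGS1 (COX-1, mostly constitutive) and PTGS2 (COX-2, the cytokine-inducible enzyme) turn it into PGH2, and the terminal synthases PTGES, PTGES2 and PTGES3 turn PGH2 into PGE2. The transporter ABCC4 carries PGE2 out of the cell, the receptors EP2 (PTGER2) and EP4 (PTGER4) raise cyclic AMP (cAMP) in response to it, and 15-hydroxyprostaglandin dehydrogenase (HPGD) inactivates it. In joints, PGE2 is known as a mediator of inflammatory pain.

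Library totals ranged from 14158607 to 28931652 counts. The first SLC IL-1β+LOXL2 replicate stood apart from the other 2 of its group (chi-square per degree of freedom of 159 and 58.1, against 29.2 for the other pair), and so did the first MLC IL-1β+LOXL2 replicate (15.2 and 33.9, against 5.81). The LOXL2 gene itself, checked first, did not mark the IL-1β+LOXL2 group. It differed from IL-1β alone by -0.27 on the log2 scale in SLC (adjusted p = 0.103) and by -0.066 in MLC (adjusted p = 0.596). Directions for LOXL2 therefore rest on the labels. The cartilage collagen genes COL2A1 and COL9A1 had 0 counts in the SLC IL-1β libraries, against means of 310 ± 102 and 261 ± 40.5 normalized counts (SD, n = 3) in the MLC IL-1β libraries. The leukocyte genes PTPRC and TYROBP were at 0 in both IL-1β groups, and ITGAM was at 0 in MLC. CD14, CD68 and CSF1R of the same leukocyte and macrophage list were detected. With IL-1β, CD14 had 1446 ± 157 normalized counts in SLC and 1994.5 ± 428 in MLC, and CD68 had 108 ± 23.3 and 101 ± 22.4 (SD, n = 3). The mast cell genes CPA3, KIT and MS4A2 were at 0 in every group. In RNA from whole cultures, fewer cells of a type and less RNA per cell cannot be told apart.

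Within SLC, no member passed the threshold (edgeR's quasi-likelihood test, Benjamini-Hochberg adjusted p under 0.05), and neither did any other of the 14103 genes tested (0%). Of those genes, 6179 (43.8%) had an unadjusted p under 0.05 and 4234 passed with DESeq2's Wald test. Of the 9 members tested, 2 were higher (23.3% of all genes) and 4 lower (20.5%) at that unadjusted level. With DESeq2, PTGES2 passed as higher and PTGS2, PLA2G4A and ABCC4 as lower. Within MLC, 3 of the 8 members tested fell, namely PTGS2, PLA2G4A and ABCC4, and none rose. In MLC, 21.4% of the 13664 genes tested passed, 9.67% higher and 11.8% lower. HPGD in both layers and PTGER2 in MLC had too few counts to be tested.

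**Figure D1:**
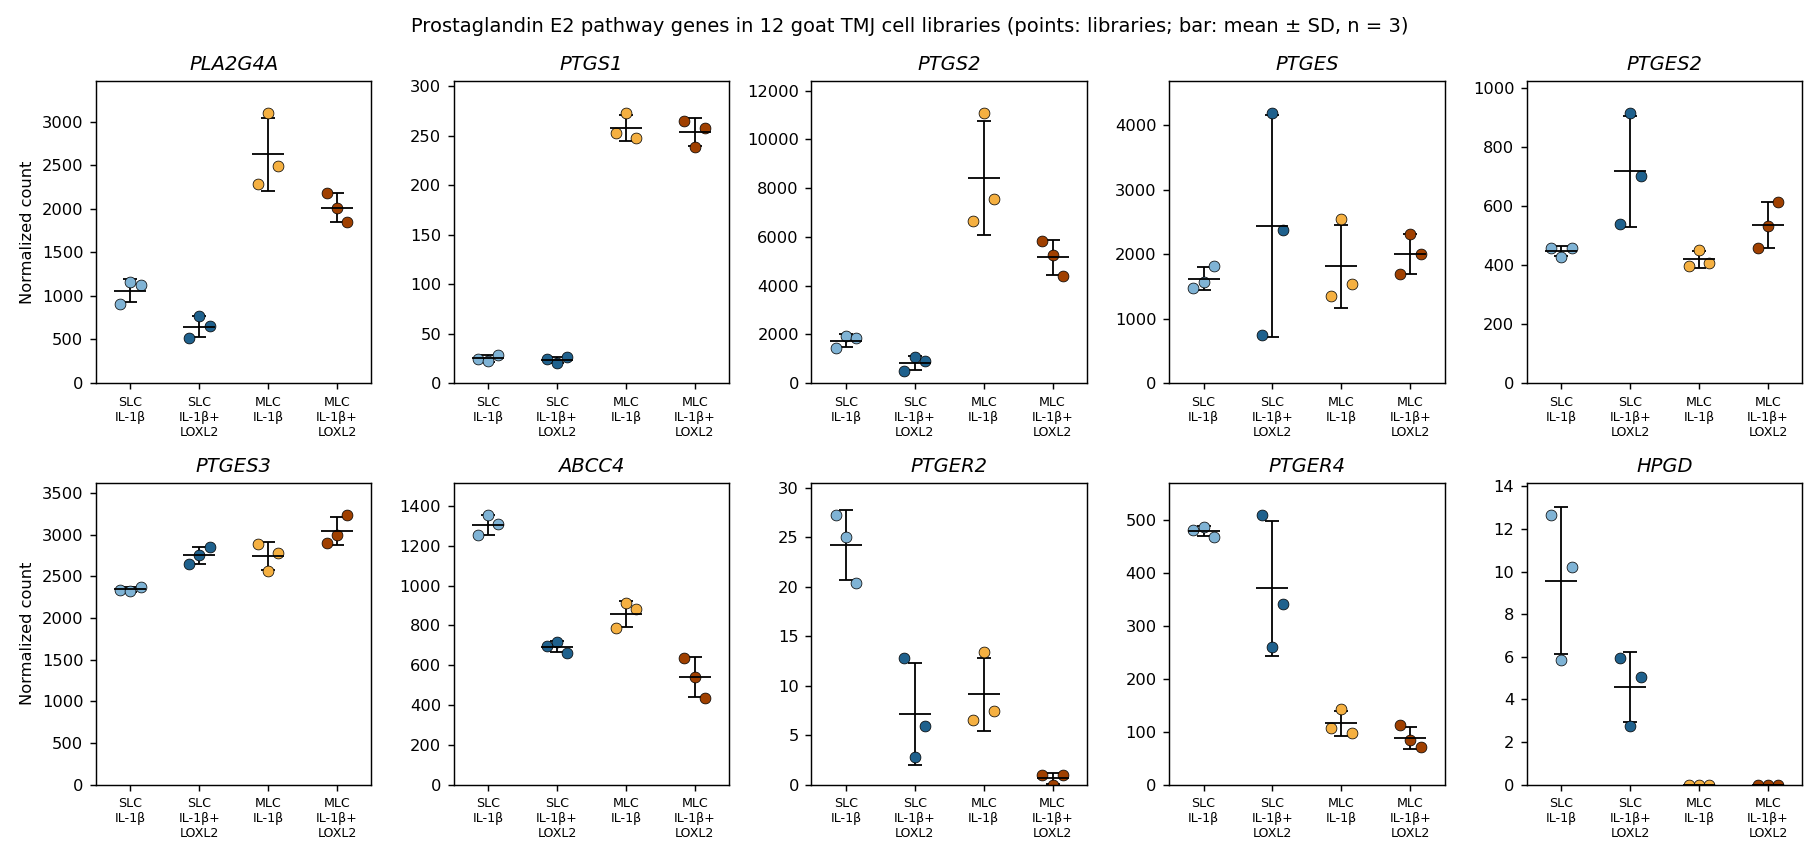
Normalized counts (y axis, from 0) of the 10 genes in the 4 groups of 3 libraries, with points for libraries and bars for the mean ± SD. PTGS2 and PLA2G4A are highest in the MLC IL-1β libraries, PTGS1 ranges from 19.9 to 28.7 in SLC and from 238 to 273 in MLC, and HPGD is at 0 in all 6 MLC libraries.

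The step that supplies arachidonic acid and the inducible cyclooxygenase moved in the same direction in the main fits. With a trend by genomic span removed, given below, the change of PLA2G4A with LOXL2 shrank and that of PTGS2 grew. PTGS2 (chromosome 16, 66345155 to 66353195, in the goat assembly ARS1.2) had normalized counts of 1425, 1933 and 1846 in the SLC IL-1β replicates and of 485, 1068 and 885 with LOXL2. In MLC, PTGS2 had 6657, 11069 and 7539 with IL-1β and 5812, 5260 and 4400 with LOXL2. In both layers every IL-1β+LOXL2 library was below every IL-1β library. PTGS2 fell in MLC, by 0.71 on the log2 scale (standard error, SE, 0.16; adjusted p = 0.0207). In SLC the difference was -1.09 (SE 0.27, adjusted p = 0.0692). This adjusted p was the smallest of any gene in SLC, and the adjustment gave the same value to PLA2G4A, PTGES2, ABCC4 and PTGER2. It therefore does not rank these genes. Before adjustment, the quasi-likelihood p was 0.00481 for PTGS2, 0.00343 for PLA2G4A, 0.00755 for PTGES2, 2.08e-05 for ABCC4 and 0.00518 for PTGER2.

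PLA2G4A (chromosome 16, 66532914 to 66696688) had 906, 1153 and 1122 normalized counts in SLC with IL-1β and 521, 769 and 652 with LOXL2. In MLC the values were 2284, 3093 and 2490 with IL-1β and 2176, 2007 and 1848 with LOXL2. Again the groups did not overlap in either layer. PLA2G4A fell in MLC, with a log2 fold change of -0.39 (SE 0.12, adjusted p = 0.0362). In SLC it was -0.71 (SE 0.17, adjusted p = 0.0692). Groups did not overlap for 49% of genes in SLC (23.8% higher, 25.2% lower) and 41.4% in MLC (21.5% higher, 19.9% lower), and the two-sided exact permutation test gave p = 0.1 for each of these 4 differences, the smallest that 3 libraries against 3 allow.

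PTGS1, the constitutive cyclooxygenase (chromosome 11, 92825740 to 92850327), did not follow PTGS2 with LOXL2 within a layer. Its normalized counts in SLC were 24.3, 21.7 and 28.7 with IL-1β and 23.8, 19.9 and 26.2 with LOXL2. In MLC they were 253, 273 and 247 with IL-1β and 265, 238 and 258 with LOXL2. The treatment groups overlapped in both layers. The log2 fold change of PTGS1 was -0.099 in SLC (SE 0.24, adjusted p = 0.764) and -0.021 in MLC (SE 0.12, adjusted p = 0.912). Over all 12 libraries, which span both layers, PTGS1 had a Pearson correlation of 0.91 with PTGS2, against 0.063 in SLC and 0.47 in MLC.

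The balance of the cyclooxygenases was read within each library, where scaling between libraries has no part. The share of PTGS1 among the reads of PTGS1 and PTGS2 together, not corrected for gene length, was 1.68%, 1.11% and 1.53% in the SLC IL-1β replicates. It was 4.68%, 1.83% and 2.87% with LOXL2. In MLC it was 3.66%, 2.40% and 3.18% with IL-1β and 4.37%, 4.33% and 5.54% with LOXL2. Every share with LOXL2 was above every share without it in the same layer, and PTGS2 itself was lower there. The count ratio to PTGS2 was higher without overlap for 65.6% of all genes in SLC and 65.1% in MLC, so that this is not particular to PTGS1. In SLC the highest IL-1β share, 1.68%, had an exact 95% binomial interval of 1.09% to 2.47% and the lowest with LOXL2, 1.83%, one of 1.23% to 2.62%, which overlap; these intervals cover counting error only.

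Between layers, the cyclooxygenases and the phospholipase were higher in MLC. With IL-1β, PTGS1 was 10.5-fold higher in MLC than in SLC (log2 fold change 3.39, SE 0.16, adjusted p = 5.61e-10). PTGS2 was 4.92-fold higher (2.30, SE 0.16, adjusted p = 2.86e-08) and PLA2G4A 2.51-fold higher (1.33, SE 0.11, adjusted p = 1.81e-07). With IL-1β+LOXL2, the log2 fold changes of PTGS1, PTGS2 and PLA2G4A were 3.46, 2.68 and 1.65 (adjusted p of 7.07e-05, 8.61e-04 and 6.22e-04). Each of these differences passed in all 6 fits that left out 1 library. In those fits, from 5457 to 6613 genes passed with IL-1β and from 1173 to 4754 with IL-1β+LOXL2. In the comparison with IL-1β, 7 of 9 tested members passed, 4 higher and 3 lower, where 47.1% of 13965 genes passed (24.3% higher, 22.8% lower). In that with IL-1β+LOXL2, 4 of 8 passed, 3 higher and 1 lower, where 16.4% of 14085 genes passed (9.49% higher, 6.89% lower). With the replicate number as a block the latter count was 3963 genes (28.1%) and the same 4 members passed. The chondrocyte genes SOX9 and ACAN also stood higher in MLC with IL-1β, at 1618 ± 150 against 400 ± 24.8 and at 7451 ± 826 against 894 ± 47.9 normalized counts (SD, n = 3). COMP and HAPLN1 were higher in MLC too, like COL2A1 and COL9A1 above. COL11A1 (22229 ± 535 in MLC against 23200 ± 1204 in SLC) and MATN3 (7.62 ± 5.55 against 6.63 ± 1.74) overlapped between the layers. Summed over these 8 chondrocyte markers, the libraries with IL-1β ranged from 1310 to 1433 CPM in SLC and from 1759 to 1915 CPM in MLC. Most of that sum was COL11A1. Layer, culture and cell composition cannot be told apart here, and the 4 pairwise comparisons share libraries.

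**Figure D2:**
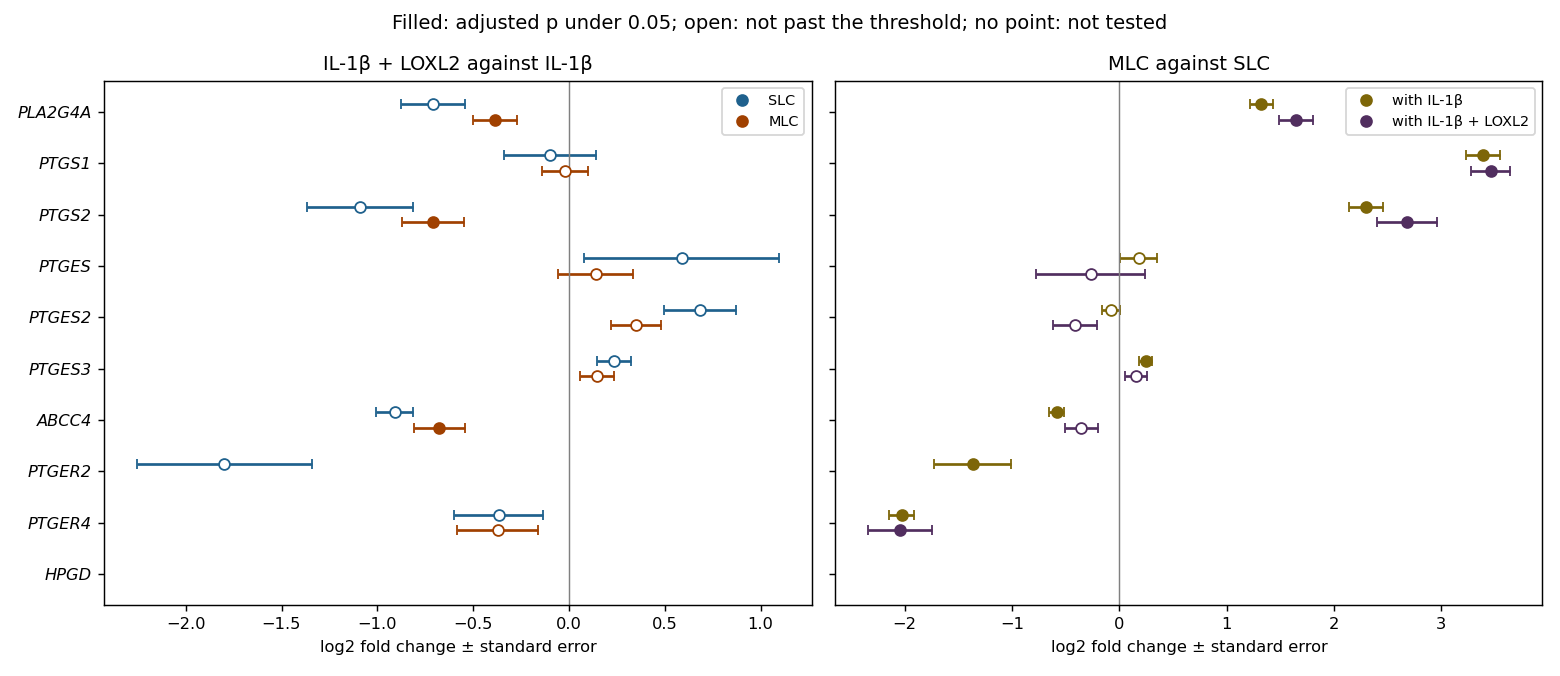
Log2 fold changes (x axis) with standard errors for the 10 genes, LOXL2 against IL-1β alone within each layer (left) and MLC against SLC within each treatment (right), filled where the adjusted p is under 0.05. PTGS2, PLA2G4A and ABCC4 are filled on the left in MLC and no gene is in SLC, while PTGS1 lies beyond 3 on the right in both treatments.

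PLA2G4A was the gene most like PTGS2 by correlation. Of 14533 genes compared over the 12 libraries, PLA2G4A had the highest Pearson correlation with PTGS2 in log2 CPM (counts scaled to library size), at 0.998, and both genes ranked the libraries in the same order (Spearman's rho of 1). It also ranked first in the 6 SLC libraries alone (0.988), in the 6 MLC libraries alone (0.999) and in deviations from the group means (0.974). The points share libraries, group means and sequencing depth, and 2.66% of genes had a correlation above 0.9. The correlations were not computed again with the trend by genomic span removed. Next over the 12 libraries came SERPINE2, a secreted protease inhibitor (0.993), CA12, a carbonic anhydrase (0.992), SLCO4A1, an organic anion transporter (0.989), and NOCT, the circadian gene nocturnin (0.987).

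PTGS2 and PLA2G4A are neighbours on chromosome 16. The annotated genes are 179719 bases apart, with 0 annotated genes between them. Their fold changes were not equal, since PTGS2 varied over a wider range. The log2 ratio of PTGS2 to PLA2G4A counts within a library was 0.71 ± 0.047 (SD, n = 3) in SLC with IL-1β and 0.27 ± 0.32 with LOXL2. In MLC it was 1.66 ± 0.16 and 1.35 ± 0.089. The ratios with LOXL2 were all below those without it in the same layer (two-sided exact permutation test, p = 0.1 in each). Turned around, as a ratio to PTGS2, the same separation was seen for 65.6% of all genes in SLC and 65.1% in MLC, so that it is not particular to PLA2G4A.

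**Figure D3:**
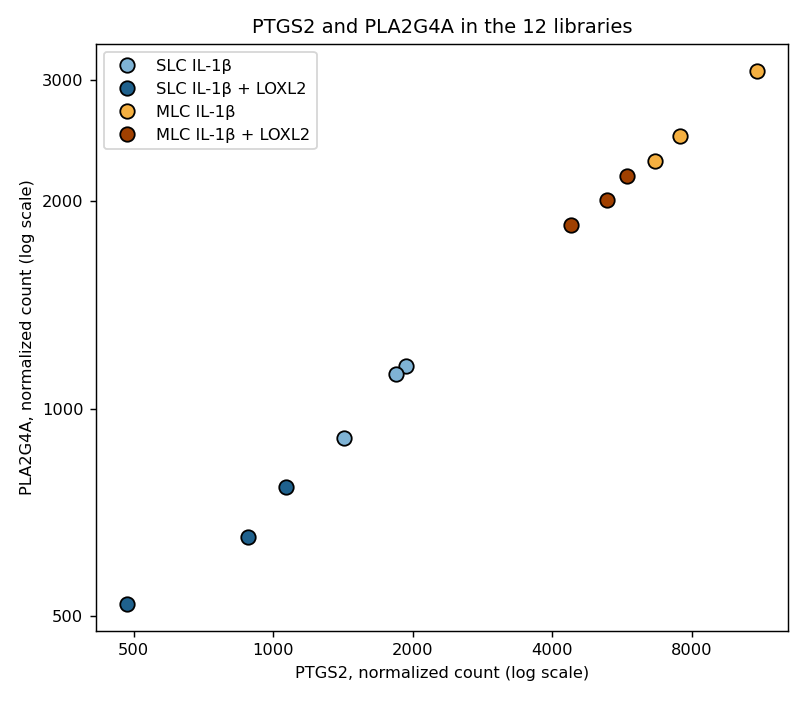
Normalized counts of PTGS2 (x axis) and PLA2G4A (y axis) in the 12 libraries, both on log scales, coloured by group. The 12 points rise in one order from 485 and 521 in an SLC IL-1β+LOXL2 library to 11069 and 3093 in an MLC IL-1β library.

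No terminal synthase passed the test with LOXL2. PTGES2 and PTGES3 lay higher in every library with LOXL2, where PTGS2 lay lower. Of all genes, 23.8% in SLC and 21.5% in MLC were higher without overlap, so that this is not particular to the synthases. PTGES, the inducible microsomal synthase (chromosome 11, 99596956 to 99608519), had 1468, 1573 and 1821 normalized counts in SLC with IL-1β and 745, 4185 and 2374 with LOXL2. The first IL-1β+LOXL2 replicate was the lowest of the 6 libraries and the second the highest, a 5.61-fold range. In MLC, PTGES had 1349, 2549 and 1530 with IL-1β and 1688, 2305 and 2000 with LOXL2, and the groups overlapped. The log2 fold change was 0.59 in SLC (SE 0.51, adjusted p = 0.383) and 0.14 in MLC (SE 0.20, adjusted p = 0.627). Without the first SLC IL-1β+LOXL2 replicate PTGES was higher past the threshold (1.02, adjusted p = 6.43e-04), and without the second its log2 fold change was -0.051.

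PTGES2, a membrane-associated synthase (chromosome 11, 98302696 to 98308565), had 455, 427 and 458 normalized counts in SLC with IL-1β and 537, 912 and 700 with LOXL2. In MLC, it had 398, 452 and 405 with IL-1β and 457, 532 and 612 with LOXL2. Every library with LOXL2 was above every library without it, in both layers. The log2 fold change was 0.69 in SLC (SE 0.19, adjusted p = 0.0692) and 0.35 in MLC (SE 0.13, adjusted p = 0.0673), so that neither passed. PTGES3, the cytosolic synthase that also serves as the HSP90 co-chaperone p23 (chromosome 5, 56140778 to 56161014), ranged from 2321 to 2377 in SLC with IL-1β and from 2650 to 2851 with LOXL2, a log2 fold change of 0.23 (SE 0.088, adjusted p = 0.0887). In MLC it ranged from 2565 to 2892 and from 2902 to 3235 (0.15, SE 0.090, adjusted p = 0.241).

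Between layers, PTGES3 was the synthase that passed. With IL-1β, the log2 fold change of MLC over SLC was 0.18 for PTGES (SE 0.17, adjusted p = 0.407) and -0.075 for PTGES2 (SE 0.085, adjusted p = 0.494). PTGES3 was 1.19-fold higher in MLC (log2 fold change 0.25, SE 0.060, adjusted p = 0.00388). None of the synthases passed between layers with LOXL2. Pooled over the 12 libraries, the deviations of PTGES and PTGS2 from their group means had a correlation of 0.88, which ranked 80th of the 14533 genes. This did not hold in each group. In MLC with LOXL2 the first replicate was the highest for PTGS2 and the lowest for PTGES. Over the libraries themselves the correlation was 0.18 across all 12, 0.35 in SLC and 0.18 in MLC.

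The ratios of PTGES and PTGES2 to PTGS2 were higher with LOXL2 in every library of both layers. PTGS2 itself was lower in all of these libraries, and the ratio to PTGS2 was higher without overlap for 65.6% of all genes in SLC and 65.1% in MLC, so that this is not particular to the synthases. The ratio of PTGER4 to PTGS2 overlapped in both layers (two-sided exact permutation test, p = 0.4 in SLC and 0.2 in MLC). The log2 ratio of PTGES to PTGS2 counts was 0.044, -0.30 and -0.020 in the SLC IL-1β replicates and 0.62, 1.97 and 1.42 with LOXL2. The group means differed by 1.43, or 2.69-fold. In MLC the ratio was -2.30, -2.12 and -2.30 with IL-1β and -1.78, -1.19 and -1.14 with LOXL2, a difference of 0.87 or 1.83-fold. The ratio of PTGES2 to PTGS2 was 3.49-fold higher with LOXL2 in SLC and 2.04-fold higher in MLC. The groups were apart in all 4 comparisons, also with the first SLC IL-1β+LOXL2 replicate included, and the two-sided exact permutation test gave p = 0.1 in each, the smallest it allows.

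**Figure D4:**
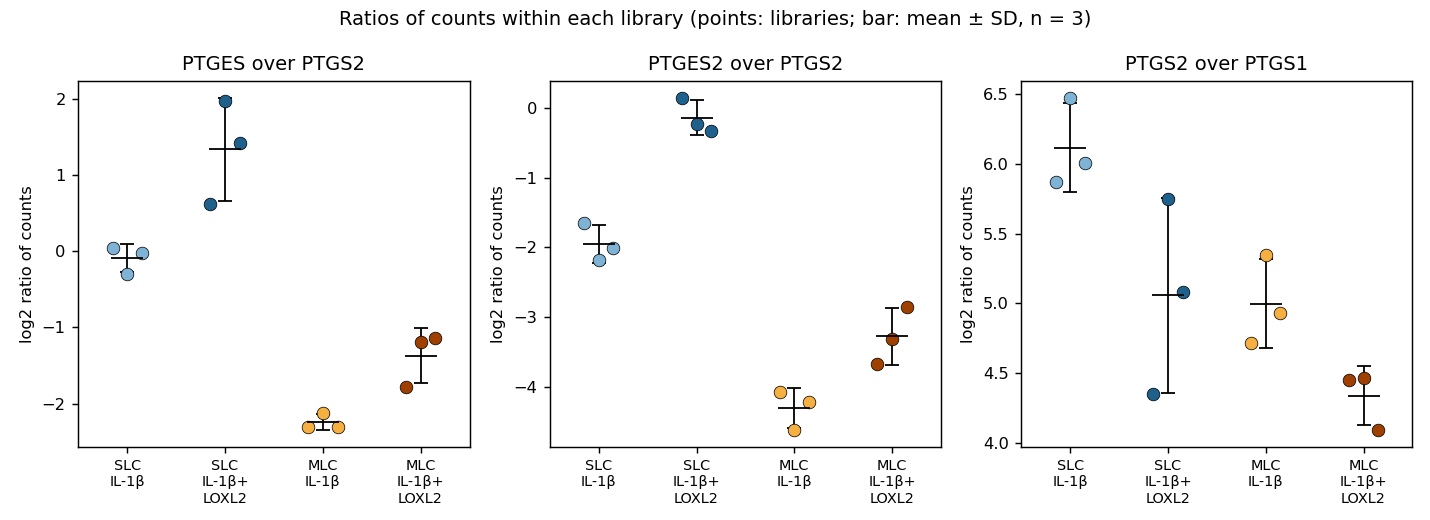
Log2 ratios of counts within each library (y axis) for PTGES over PTGS2, PTGES2 over PTGS2 and PTGS2 over PTGS1 in the 4 groups, with points for libraries and bars for the mean ± SD (n = 3). The first 2 ratios are higher and the third is lower with LOXL2 in both layers, with no overlap within a layer.

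ABCC4, the exporter of PGE2 (chromosome 12, 16397253 to 16585700), varied little between SLC replicates. It had 1254, 1354 and 1309 normalized counts in SLC with IL-1β and 698, 717 and 663 with LOXL2. In MLC, it had 786, 912 and 880 with IL-1β and 637, 543 and 437 with LOXL2. The libraries with LOXL2 were lower without overlap in both layers, as for 25.2% of all genes in SLC and 19.9% in MLC. ABCC4 fell in MLC (log2 fold change -0.68, SE 0.13, adjusted p = 0.0184), and in SLC the log2 fold change was -0.91 (SE 0.096, adjusted p = 0.0692). In contrast to PTGS2 and PLA2G4A, ABCC4 was lower in MLC than in SLC with IL-1β (log2 fold change -0.58, SE 0.071, adjusted p = 1.01e-05).

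The EP receptor genes were higher in SLC. PTGER4, which encodes EP4 (chromosome 20, 33737446 to 33750583), had 481, 487 and 468 normalized counts in SLC with IL-1β and 106, 142 and 97.7 in MLC. It was 4.08-fold lower in MLC (log2 fold change -2.03, SE 0.12, adjusted p = 6.84e-09), and 4.12-fold lower in the libraries with LOXL2 (-2.04, adjusted p = 0.00370). With LOXL2 its values were 509, 260 and 342 in SLC and 112, 83.4 and 71.6 in MLC, overlapping the IL-1β libraries of each layer. The log2 fold change within a layer was -0.37 in both (SE 0.23 and 0.21, adjusted p of 0.246 and 0.207).

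PTGER2, which encodes EP2 (chromosome 10, 89435648 to 89446090), was near the limit of detection. Its raw counts were 28, 30 and 22 in SLC with IL-1β and 15, 4 and 7 with LOXL2. In MLC they were 5, 11 and 6 with IL-1β and 1, 0 and 1 with LOXL2. The libraries with LOXL2 were all lower in both layers, as for 25.2% of the genes tested in SLC and 19.9% in MLC. After division by library totals, the SLC ratio of IL-1β to IL-1β+LOXL2 was 3.67 (exact 95% interval 2.33 to 5.95) on 80 and 26 counts, and the MLC ratio was 13.0 (3.19 to 114.01) on 22 and 2 counts. These intervals pool the reads of 3 libraries and cover counting error only, not the spread between libraries. The edgeR log2 fold change in SLC was -1.80 (SE 0.46, adjusted p = 0.0692). PTGER2 was lower in MLC than in SLC with IL-1β (-1.36, SE 0.36, adjusted p = 0.00609).

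The other EP receptor genes gave few reads. Over the 3 libraries of a group, PTGER3, which encodes EP3, had 35 and 37 counts in SLC without and with LOXL2 and 8 and 4 in MLC, and PTGER1, which encodes EP1, had between 1 and 8.

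HPGD, the inactivating enzyme (chromosome 8, 6700226 to 6735454), was detected in SLC and not in MLC. Its raw counts were 13, 7 and 11 in SLC with IL-1β and 7, 4 and 6 with LOXL2, which overlap. All 6 MLC libraries had 0, which allows up to 0.0675 CPM in the IL-1β group and 0.0571 CPM with LOXL2 (3 counts over the group). Against that floor the measured HPGD level in SLC was at least 7.58-fold higher with IL-1β and at least 4.12-fold higher with LOXL2, without the counting error of the 31 and 17 SLC reads. Within SLC, the ratio of IL-1β to IL-1β+LOXL2 was 2.17 on 31 and 17 counts (exact 95% interval 1.17 to 4.19, for counting error only), with overlapping libraries.

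The LOXL2 effect was not distinguishable between the layers for any member. A test of the interaction over the 12 libraries called 0 of the 14534 genes (0%), with 339 (2.33%) at an unadjusted p under 0.05 and 0 with DESeq2. For PTGS2 the effect in MLC minus that in SLC was 0.36 on the log2 scale (SE 0.36, adjusted p = 0.953) and for ABCC4 0.22 (SE 0.17, adjusted p = 0.953).

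Single libraries decided the calls for LOXL2. Without the first SLC IL-1β+LOXL2 replicate, 8931 SLC genes (62.3%) passed, among them PTGES, PTGES2 and PTGES3 higher and PTGS2, PLA2G4A, ABCC4, PTGER2 and PTGER4 lower. Without any other SLC library 0 passed. In MLC, PTGS2 and PLA2G4A passed in 1 of the 6 fits that left out 1 library. This was the fit without the first IL-1β+LOXL2 replicate (6702 genes, 48.4%). ABCC4 passed in 3 of the 6, also without the second IL-1β (5.92% of all genes passed) or the third IL-1β+LOXL2 replicate (3.54%). In the remaining MLC fits 0% of all genes passed, so that the loss of calls is not particular to the members. With the first IL-1β+LOXL2 replicate removed, PTGES2 and PTGES3 passed as higher and PTGER4 as lower in MLC too. All of these fits left PTGS2, PLA2G4A and ABCC4 below 0. The log2 fold change of PTGS2 ran from -1.34 to -0.83 in SLC, and in MLC from -0.85 to -0.47. That of ABCC4 ranged from -0.94 to -0.88 in SLC and from -0.82 to -0.54 in MLC, and that of PLA2G4A from -0.85 to -0.58 and from -0.47 to -0.25. In a fit on all 12 libraries no MLC gene passed, while 6148 SLC genes (42.3%) did, with PTGES2 and PTGES3 higher and PTGS2, PLA2G4A, ABCC4 and PTGER2 lower.

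Genomic span moved with treatment and bears on the long members. The rank correlation with gene span of each gene's difference from the mean of the IL-1β libraries of its layer lay between -0.48 and -0.31 in the 6 libraries with LOXL2. In the IL-1β libraries, each set against the other 2 of its group, it lay between -0.27 and 0.19. ABCC4 spans 188448 bases and PLA2G4A 163775, longer than 93.8% and 92.5% of genes, whereas PTGS2 spans 8041 bases and PTGES2 5870. With the span trend removed from each library, PLA2G4A no longer passed in MLC (log2 fold change -0.10, adjusted p = 0.521) and its value in SLC was -0.26. ABCC4 still fell in MLC (-0.40, adjusted p = 0.0289), with -0.47 in SLC. PTGS2 moved the other way, to -0.84 in MLC (adjusted p = 0.0203) and -1.33 in SLC. PTGES2 moved to 0.18 in MLC and 0.41 in SLC.

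Of 5 smooth muscle and pericyte markers, all detected, ACTA2 and CNN1 were higher in every MLC library with LOXL2, whereas MYH11, DES and RGS5 overlapped between the MLC groups. The 5 summed to between 872 and 979 CPM with IL-1β and between 1139 and 1480 CPM with LOXL2 in MLC, and to 1448 to 1882 and 1764 to 2071 CPM in SLC. Their part in the results was not tested. The endothelial list summed to at most 4.26 CPM, the leukocyte list, mainly CD14 and CD68, to between 55.6 and 140 CPM, and the 4 genes of the fibrous layer to between 53193 and 56585 CPM in MLC. In SLC the fibrous layer genes summed to 49773 to 50625 CPM with IL-1β and 43511 to 49261 with LOXL2. The chondrocyte markers summed to 1310 to 1433 and 745 to 1304, so that both sums were lower in every library with LOXL2. Most of the chondrocyte sum was COL11A1, at 1172 to 1294 CPM with IL-1β and 601 to 1160 with LOXL2. SOX9, ACAN, HAPLN1, COMP and MATN3 overlapped between the SLC groups. In MLC the chondrocyte sums overlapped, at 1759 to 1915 and 1490 to 1876 CPM. The part of these markers was not tested either.

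**Figure D5:**
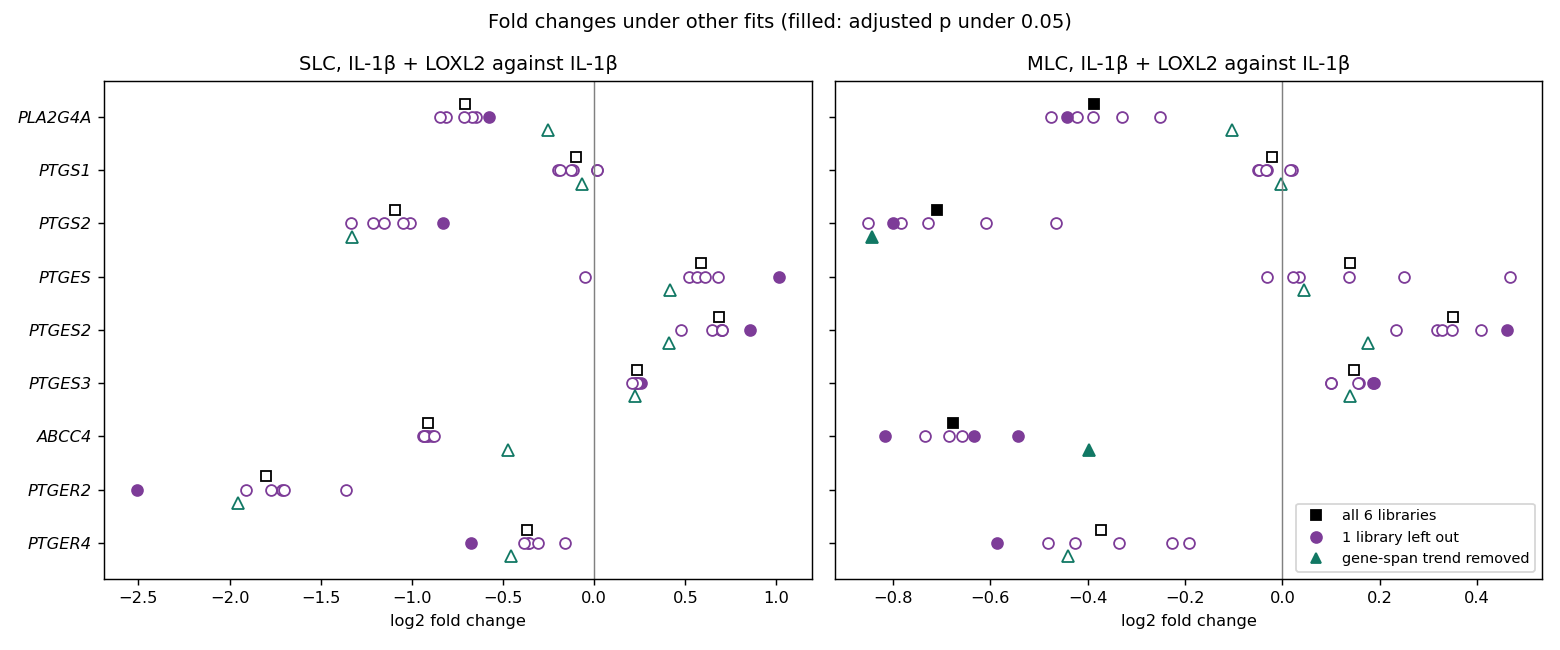
Log2 fold changes with LOXL2 (x axis) of 9 genes in SLC (left) and 8 in MLC (right), from all 6 libraries (squares), with each library left out in turn (circles) and with the gene-span trend removed (triangles), filled where the adjusted p is under 0.05. PTGS2 stays below 0 in every fit, while PLA2G4A and ABCC4 move toward 0 in the span-corrected fit of both layers.

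The supply of arachidonate was examined in a list of 32 genes for its release, recycling and lipoxygenase branch, of which 21 were tested in each comparison. In MLC with LOXL2, 1 rose (9.67% of all genes) and 1 fell (11.8%). ACSL4, which attaches coenzyme A to arachidonate, fell from 3276 to 2408 mean normalized counts (log2 fold change -0.45, adjusted p = 0.0308). MGLL, the monoacylglycerol lipase that feeds arachidonate from endocannabinoids, rose from 916 to 1244 (0.44, adjusted p = 0.0301). With IL-1β, 10 genes of the list were higher (24.3% of all genes) and 4 lower (22.8%) in MLC than in SLC, led by ALOX12, a lipoxygenase (1.31), ACSL4 (1.11), FADS2, a desaturase (1.04), and MGLL (0.95). The list's median log2 fold change was 0.20 there, against -0.0071 over all genes. In SLC none passed with LOXL2, and the medians were 0.13 in SLC and -0.041 in MLC.

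Other prostanoid synthases, receptors and transporters were a list of 24, with 15 tested in MLC. The transporter ABCC1 fell with LOXL2 (-0.36, adjusted p = 0.0233) and no other member passed, where 9.67% of all genes rose and 11.8% fell. With the span trend removed, 2 genes of the list rose instead and none fell, where 14.8% of all genes passed. These were PTGIS, the prostacyclin synthase (0.29), and PTGR1, a prostaglandin reductase (0.31). The list's median was -0.074 there and -0.13 in SLC, against 0.0075 and 0.013 over all genes. With IL-1β, 5 were higher and 5 lower in MLC than in SLC, where 24.3% and 22.8% of all genes were. The largest differences were in PTGDR, a prostaglandin D2 receptor (1.75), SLCO3A1, a transporter (1.45), TBXA2R, the thromboxane receptor (-1.41), and ABCC3, an efflux pump (1.24).

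Downstream of EP2 and EP4, 35 genes of cAMP signaling were tested. In MLC, 10 fell with LOXL2 (11.8% of all genes) and 1 rose (9.67%), PRKAR1A, a regulatory subunit of protein kinase A (0.33, adjusted p = 0.0393), with a median log2 fold change of -0.21 against 0.0075 over all genes. The phosphodiesterase genes PDE3A (-0.92, adjusted p = 0.0224), PDE8A (-0.65, adjusted p = 0.0196) and PDE3B (-0.63, adjusted p = 0.0220), whose products break cyclic nucleotides down, and the coactivator gene EP300 (-0.67, adjusted p = 0.0184) fell most. In SLC none passed and the median was -0.44 against 0.013. The list's genes are long, with a median span of 85605 bases against 20486 for all genes, and with the span trend removed the medians were -0.021 in MLC, with 5 lower and 1 higher (14.8% of all genes passed), and -0.084 in SLC. Without the first MLC IL-1β+LOXL2 replicate 18 fell and 5 rose (48.4% of all genes passed), and with IL-1β replicate 1, IL-1β replicate 3 or IL-1β+LOXL2 replicate 2 removed none passed.

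Between layers with IL-1β, 6 of the 35 cAMP signaling genes were higher (24.3% of all genes) and 14 lower (22.8%) in MLC, led by ARRB1, a receptor-desensitizing arrestin (1.63), ADCY2, an adenylyl cyclase (-1.40), CREM, a cAMP-responsive transcription factor (-1.23), and PDE3A (-1.02). A list of 18 cAMP-responsive genes had 14 tested in MLC. Of these, NR4A3, an orphan nuclear receptor, fell with LOXL2 (-0.70, adjusted p = 0.0271) and none rose, where 11.8% of all genes fell and 9.67% rose. In SLC, none of 16 passed, and the medians were -0.13 in MLC and -0.32 in SLC. Between layers with IL-1β, 3 of these genes were higher and 6 lower in MLC, beside 24.3% and 22.8% of all genes. PPARGC1A, a coactivator of mitochondrial biogenesis, was 14.8-fold lower in MLC, EGR1, an immediate early transcription factor, and DUSP1, a MAP kinase phosphatase, were lower (-0.998 and -0.96), and IL6, a cytokine, was 2.79-fold higher.

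Regulators of PTGS2 transcription and mRNA stability were tested as a list of 22. In MLC with LOXL2, 4 fell (11.8% of all genes) and 1 rose (9.67%), RBM3, a cold-inducible RNA-binding protein (0.30, adjusted p = 0.0366). REL, a subunit of NF-κB, had 126, 86.4 and 89.1 normalized counts with IL-1β and 63.7, 31.8 and 26.2 with LOXL2, a log2 fold change of -1.27 (SE 0.29, adjusted p = 0.0208). NFKBIZ, a nuclear IκB protein (-0.44), TIA1, a translational silencer (-0.39), and ZFP36L2, an mRNA-destabilizing protein (-0.35), also fell (adjusted p from 0.0241 to 0.0341). The list's share called was near that of all genes (21.4%). Its median was 0.049 in MLC and 0.068 in SLC, where none passed. With the span trend removed the medians turned to -0.052 in MLC, with 0 higher and 5 lower (14.8% of all genes passed), and -0.21 in SLC. The calls of list genes named here for MLC with LOXL2 were all lost when the 12 libraries were fitted together, and also with IL-1β replicate 1, IL-1β replicate 3 or IL-1β+LOXL2 replicate 2 removed. With the span trend removed, ACSL4, PDE3B, NR4A3 and ABCC1 no longer passed (log2 fold changes -0.23, -0.35, -0.58 and -0.080), and neither did RBM3.

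Between layers with IL-1β, 8 of these 22 genes were higher (24.3% of all genes) and 5 lower (22.8%) in MLC. CELF2, an RNA-binding protein that restrains PTGS2 translation, was 2.70-fold lower in MLC (adjusted p = 8.65e-10), and REL was 2.07-fold higher (adjusted p = 0.00919). EGR1, given above, was lower and ZFP36L2 1.61-fold higher. With IL-1β+LOXL2, 3 were higher (9.49% of all genes) and 3 lower (6.89%), and CELF2 and EGR1 were again lower in MLC (-1.02 and -1.03) and NFKB1 and ZFP36L2 higher (0.80 and 0.76).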

How the data were processed

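RNA-seq of 12 goat TMJ cell libraries was analysed. Per layer, the authors deposited 1 table of raw read counts, made from poly-T selected RNA by trimming paired-end reads, mapping to ARS1.2 and counting with featureCounts; HISAT2 is named in the submitters' processing notes. Settings for strand and for reads mapping to several genes are not given in the sources used here. The labels name an RNeasy kit and the methods TRIzol. The tables were joined by row, and 28884 of 28910 rows carry a RefSeq symbol of ARS1.2, the source of coordinates.

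Genes were kept by filterByExpr (10 counts, 15 in total), scaled by TMM and fitted by quasi-likelihood in edgeR 4.0.16 (R 4.3.3), using the 6 libraries compared, or all 12 for the interaction. P-values were adjusted by Benjamini-Hochberg over all genes tested, with 0.05 as threshold. Standard errors were derived from the F statistic, as the absolute log2 fold change over its square root. Normalized counts are DESeq2 1.42.0 median-of-ratios over the 12 libraries. Exact permutation tests were two-sided. Alternatives were DESeq2 size factors, other filters, DESeq2's Wald test, legacy quasi-likelihood, a fit on all libraries, a replicate block, removal of the gene-span trend (lowess, smoother span 0.3) and each library left out. The procedure was tested on simulated data. Of 100 genes given a log2 change of 1, it recovered 71 for LOXL2 in SLC, 95 in MLC and 50 for the interaction. False calls in these runs were 7, 21 and 9. The simulated libraries did not deviate over many genes together, as the first IL-1β+LOXL2 replicates did. The recovery therefore does not give the power in the real libraries.

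Same-numbered MLC and SLC libraries with IL-1β+LOXL2 deviated together (correlations 0.64, 0.23 and 0.20). The second SLC and the third MLC replicate did so too (0.49), so these values do not settle a pairing by number. The main fits used no pairs, and the replicate block was an alternative.

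Genes named are the 10 members, LOXL2, in each list and comparison at most the 4 largest changes past the threshold, and the 5 genes most correlated with PTGS2. Cell type marker genes were named as checks. PTGER1, PTGER3, RBM3, PRKAR1A, PTGIS and PTGR1 were added after their values were seen. Members and lists were chosen with earlier results of these data known. Promoter motifs were not analysed here.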

Additional observations from a re-analysis of the deposited data

How the results depend on the processing

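Of 643 refits of single members, 583 gave the reported direction and side of the threshold, 17 lost a call, 25 gained one and 18 changed sign, all for PTGS1, PTGES or PTGER4 values that had not passed. The number of genes called in SLC was 4234 by DESeq2, 6148 when all 12 libraries were fitted together and from 0 to 8931 with a library left out. In MLC these were 0 for the joint fit and from 0 to 6702. Between layers, the joint fit called 3745 genes with IL-1β and 4263 with IL-1β+LOXL2, where leaving out a library gave from 1173 to 4754. Leaving one out gave from 0 to 1 for the interaction. The cause was not tested for these changes, beyond the number of samples in each fit.

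With the replicate number as a block, 3963 genes passed between layers with IL-1β+LOXL2, 4055 in MLC (where PTGES2 also passed, adjusted p = 0.0374), 5856 between layers with IL-1β and 0 in SLC. No other member call changed under the block, and the log2 fold change of PTGES between layers with IL-1β+LOXL2 turned to 0.015. Outside the comparison between layers with IL-1β+LOXL2, same-numbered libraries did not all deviate together, with correlations from -0.24 to 0.17. The main fits took the numbers as pairs in no comparison.

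The difference of the LOXL2 effect on PTGER4 between layers turned to 0.0024 with DESeq2 size factors and 0.016 with the span trend removed, and ranged from -0.22 to 0.28 with a library left out. The other ranges that crossed 0 were, for PTGS1, -0.20 to 0.015 in SLC, -0.050 to 0.020 in MLC and -0.051 to 0.16 for the interaction. For PTGES they were -0.051 to 1.02 in SLC, -0.031 to 0.47 in MLC, -0.15 to 0.35 between layers with IL-1β, -0.70 to 0.36 with IL-1β+LOXL2 and -0.90 to 0.18 for the interaction. Without a filter on low counts PTGER2 passed in MLC (log2 fold change -3.43, adjusted p = 0.0144), on 22 and 2 counts. Depth limited PTGER2 and HPGD.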
